A study of Mus musculus with 4 samples.

Results

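The 5 genes described here encode the neuropeptides VIP (vasoactive intestinal peptide, from Vip) and PACAP (pituitary adenylate cyclase-activating polypeptide, from Adcyap1), the receptors Vipr1 (VPAC1) and Vipr2 (VPAC2), and the PACAP-preferring receptor Adcyap1r1 (PAC1). They were chosen by name as a ligand and receptor family, not by their values, and are 5 of the 31053 genes in the count matrices. The data are single-nucleus RNA sequencing (snRNA-seq) of punches taken on both sides from the hypothalamic arcuate nucleus (ARC), a region at the base of the brain that controls feeding, growth and fluid balance. The mice were male wildtype C57BL/6J animals, 10 weeks old, that had received either DOCA-salt (the mineralocorticoid deoxycorticosterone acetate with saline to drink, a model of hypertension) or sham treatment for 3 weeks. Each treatment had 2 libraries, named DOCA-salt 1 and 2 and Sham 1 and 2, and each library held the nuclei of 2 mice mixed together, so that differences between single mice could not be seen. Where 4 values are given without names, they follow the order DOCA-salt 1, DOCA-salt 2, Sham 1, Sham 2. The question was where these genes are read in the punches, and whether their levels differed with DOCA-salt.

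Vip and PACAP are secreted peptides of the secretin and glucagon family. Vipr1 and Vipr2 bind both peptides about equally well, whereas Adcyap1r1 binds PACAP far better than VIP, and all 3 receptors mainly couple to the stimulatory G protein, adenylyl cyclase and protein kinase A. In the suprachiasmatic nucleus, the circadian clock at the front of the hypothalamus, neurons that release VIP keep the cells in phase through Vipr2, and in the ventromedial nucleus, which lies beside the ARC, Adcyap1 is carried by many glutamatergic neurons.

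The coding stretches of the mature peptides are shown so that the peptides that share receptors can be set side by side. They were read from GENCODE transcripts (Vip-201 and Adcyap1-201), 5′ to 3′, and capitals mark bases that are the same in both genes at the same position of the first 28 codons.
VIP: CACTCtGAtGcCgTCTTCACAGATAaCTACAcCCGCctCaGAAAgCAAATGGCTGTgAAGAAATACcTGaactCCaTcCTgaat
PACAP: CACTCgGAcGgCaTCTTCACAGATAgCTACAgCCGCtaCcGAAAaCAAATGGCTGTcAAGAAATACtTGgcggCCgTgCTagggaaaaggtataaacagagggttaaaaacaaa
Over these 28 codons 62 of 84 bases (73.8%) were identical and 19 codons (67.9%) encoded the same amino acid. The longer form of PACAP has 10 further codons with no counterpart in VIP. On GRCm38 (mm10), Vip (ENSMUSG00000019772) lies at chr10:5639218-5647617 and Adcyap1 (ENSMUSG00000024256) at chr17:93199017-93206537. Of the receptors, Vipr1 (ENSMUSG00000032528) lies at chr9:121642716-121672954, Vipr2 (ENSMUSG00000011171) at chr12:116077726-116146261 and Adcyap1r1 (ENSMUSG00000029778) at chr6:55451978-55501451. These are whole genes, exons and introns together, and all 5 are on the plus strand.

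Between 2203 (Sham 1) and 18907 (DOCA-salt 2) nuclei per library were kept, with 21255137 to 69382757 UMIs (unique molecular identifiers, 1 per captured transcript). Barcodes left out held 7684730, 10054439, 32002093 and 19765064 UMIs, more in both Sham libraries. In Sham 1 this was more than the 21255137 UMIs kept. Sham 1 stood apart in depth, with a median of 8215 UMIs per nucleus against 2401 to 3278 in the other 3 libraries. Nuclei were placed in 25 classes by marker genes, none of them a member, and a class is called "gated" because it was set by a rule on these markers and not by clustering. The gates placed 37.5% to 48.3% of the kept nuclei, and 14 classes had at least 10 nuclei in every library and were tested. The punches differed in which regions they held. The libraries gave 13, 238, 37 and 65 suprachiasmatic-gated nuclei, and DOCA-salt 2 held 139 of the 140 orexin-gated nuclei. Between 1 and 44 kept barcodes were shared by any pair of libraries, at most 0.567% of the smaller library.

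Over whole libraries, Vip was the member that differed most between treatments. Vip was at 1.90 CPM (a gene's UMIs as a share of all UMIs, on the usual scale) in the first DOCA-salt library (71 UMIs) and 3.96 CPM in the second (275 UMIs), against 26.7 and 25.1 CPM in the Sham libraries (567 and 993 UMIs). Both Sham libraries were above both DOCA-salt libraries, and each pair was closely spaced next to the gap between them. The log2 difference, DOCA-salt minus Sham, was -3.15, with a standard error (SE) of 0.38, in an edgeR quasi-likelihood test (unadjusted model p, 0.000118). After Benjamini-Hochberg adjustment over all 16564 genes tested it did not pass the threshold of 0.05 (adjusted p = 0.366). No gene passed in that comparison (0 of 16564, 0%), although 1398 had an unadjusted p under 0.05. DESeq2 called 102 genes, among them Vip (adjusted p = 8.96e-14). In edgeR Vip passed without DOCA-salt 1 (log2 difference -2.71, adjusted p = 0.00849), without DOCA-salt 2 (-3.86, adjusted p = 0.000107) and without Sham 2 (-3.24, adjusted p = 0.0302), fits in which the single library left in a treatment is assumed to vary like the others. Over all genes the 2 treatments did not overlap with Sham above for 16.3% and with DOCA-salt above for 26.6%, so 1 of 5 members with Sham above is near the background. In whole libraries, fewer nuclei of a type and less RNA per nucleus cannot be told apart.

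The values of the other 4 members overlapped between treatments. Adcyap1 was at 53.0 and 48.8 CPM in the DOCA-salt libraries and at 60.2 and 43.3 CPM in the Sham libraries, with a log2 difference of -0.07 (SE 0.20, edgeR adjusted p = 0.935). Adcyap1r1 was at 174 and 202 CPM with DOCA-salt and 170 and 200 CPM with Sham, a log2 difference of -0.02 (SE 0.19, edgeR adjusted p = 0.987). For these members the difference between libraries of the same treatment was larger than the difference between treatments. Vipr2 ranged from 1.01 CPM in DOCA-salt 1 to 6.41 CPM in DOCA-salt 2, which enclosed both Sham libraries (2.96 and 3.79 CPM), with a log2 difference of 0.14 (SE 0.80, edgeR adjusted p = 0.971). Vipr1 was close to the limit of detection everywhere, with 81, 15, 12 and 16 UMIs (2.16, 0.216, 0.565 and 0.405 CPM). Its log2 difference of 1.20 (SE 1.01, edgeR adjusted p = 0.738) rested on DOCA-salt 1 and was -1.12 without that library.

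**Figure D1:**
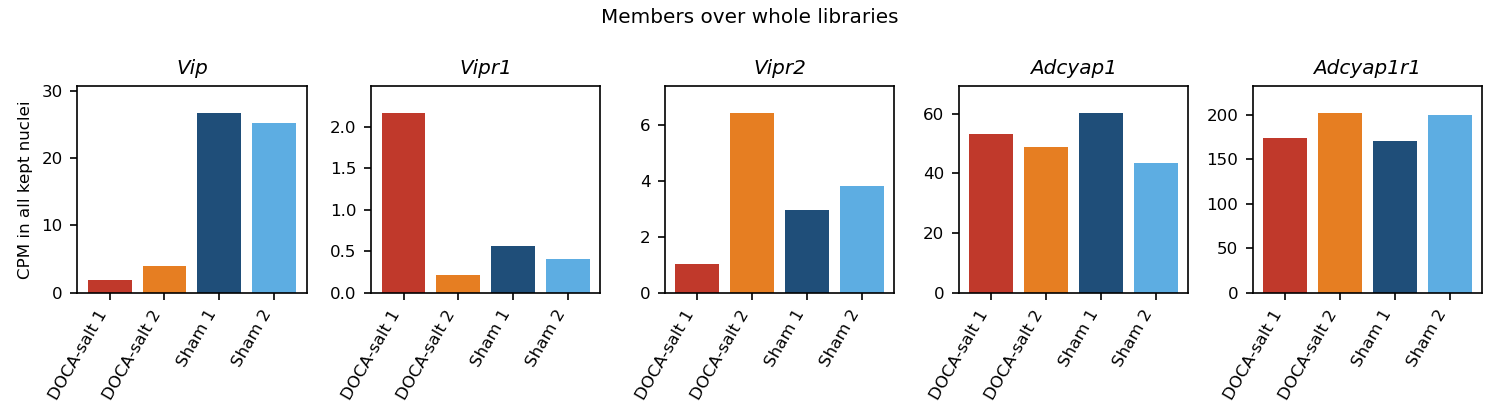
Bars give the CPM of each of the 5 members (1 panel per gene, own axis from 0) in the 4 libraries, summed over all kept nuclei with no error bar since each bar is 1 library. The Vip bars of the DOCA-salt libraries reach 1.90 and 3.96 CPM and those of the Sham libraries 26.7 and 25.1 CPM, while Vipr2 is lowest and highest in the 2 DOCA-salt libraries.

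The share of nuclei with at least 1 Vip UMI was 0.0776% in DOCA-salt 1 (exact binomial 95% interval 0.0335 to 0.153%), 0.508% in DOCA-salt 2 (0.411 to 0.620%), 6.99% in Sham 1 (5.96 to 8.14%) and 4.92% in Sham 2 (4.45 to 5.43%). These intervals, like all those given here, cover counting error only. Shares depend on depth, so each nucleus was also thinned to 800 UMIs and shallower nuclei were left out (between 6 and 2336 per library). Thinned, the shares were 0.0478%, 0.194%, 1.08% and 1.70% in the same order. Oligodendrocyte-gated nuclei, which should not make the peptide, had thinned shares of 0%, 0%, 0.405% and 1.36%. The class held 159, 615, 82 and 371 nuclei with median depths of 1005, 964, 5048 and 1744 UMIs. Nuclei under 800 UMIs are counted there but left out of the thinned shares, which rest on at most that many nuclei. Without thinning, the 0 of 159 and 0 of 615 nuclei allow shares of up to 1.89% and 0.488%. Bounds on the thinned shares are no tighter. Single Vip UMIs in the Sham libraries were therefore not read as expression, and the nuclei with several Vip UMIs are described on their own.

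Nuclei with 5 or more Vip UMIs, called Vip nuclei here, numbered 4, 15, 19 and 55. They were 0.0388% (exact 95% interval 0.0106 to 0.0993%), 0.0793% (0.0444 to 0.131%), 0.862% (0.520 to 1.34%) and 0.709% (0.534 to 0.922%) of the kept nuclei. They held 67 of 71, 147 of 275, 408 of 567 and 532 of 993 Vip UMIs of their libraries, and the highest single nucleus had 130 Vip UMIs, in Sham 1. In every library most Vip UMIs thus came from a small number of nuclei. The depth of the Vip nuclei differed as well, with median totals of 5345, 4335, 18211 and 8701 UMIs, and the limit of 5 UMIs is easier to reach in a deep nucleus. Outside them Vip was at 0.107 and 1.85 CPM in the DOCA-salt libraries and at 7.60 and 11.8 CPM in the Sham libraries. The median was 14.5, 9, 8 and 8 Vip UMIs per Vip nucleus. These medians cannot compare Vip per nucleus between treatments, since the nuclei were chosen by the same count and differed in depth.

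**Figure D2:**
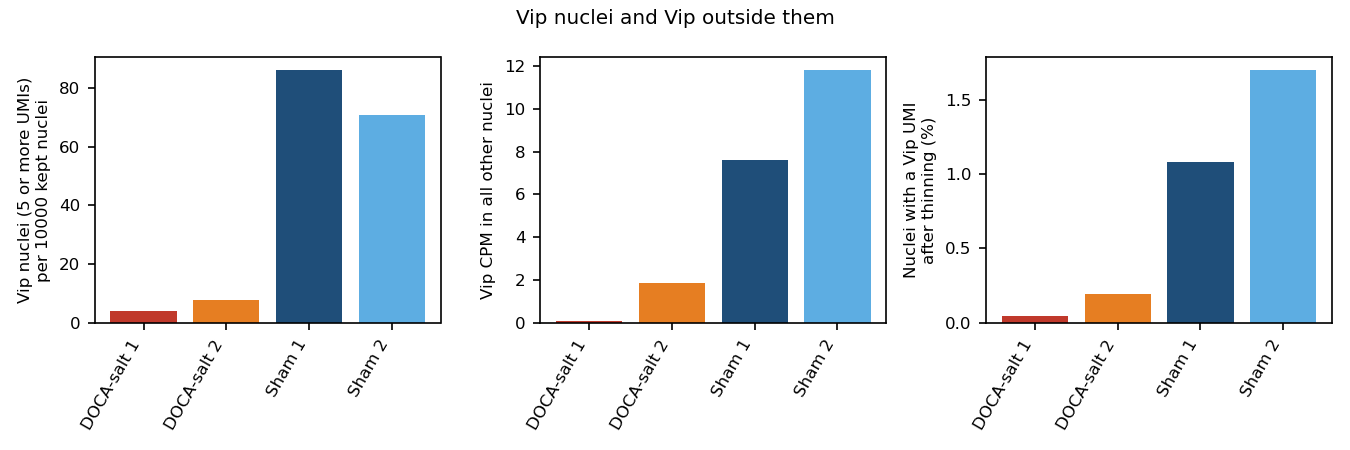
The left panel gives Vip nuclei (5 or more Vip UMIs) as a rate of the kept nuclei, the middle panel Vip CPM in all other nuclei, and the right panel the percent of nuclei with a Vip UMI after thinning to 800 UMIs, 1 bar per library. In all 3 panels both Sham libraries stand above both DOCA-salt libraries.

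All Vip nuclei had UMIs of the GABA genes Slc32a1, Gad1 or Gad2, which mark inhibitory neurons, and of the neuron-enriched long noncoding RNA Snhg11. Slc17a6, the vesicular glutamate transporter of hypothalamic excitatory neurons, had a UMI in 0 of 4, 1 of 15, 15 of 19 and 19 of 55 of them. These counts depend on depth. Its level was 0, 32.0, 201 and 103 CPM in the Vip nuclei, below the 193, 176, 245 and 225 CPM of the other neurons. Of the suprachiasmatic markers Lhx1, Syt10, Rgs16, Nms and Prok2, at least 2 were read in 1 of 4 Vip nuclei of DOCA-salt 1 (25%, exact 95% interval 0.631 to 80.6%), 9 of 15 of DOCA-salt 2 (60%, 32.3 to 83.7%), 4 of 19 of Sham 1 (21.1%, 6.05 to 45.6%) and 11 of 55 of Sham 2 (20%, 10.4 to 33.0%). Among the other neurons of these libraries the shares were 1.37%, 4.02%, 8.16% and 3.92%. The share was thus above that of other neurons in DOCA-salt 2 and Sham 2 beyond the counting interval, and not in the libraries with 4 and 19 Vip nuclei. Depth was not matched in this comparison.

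By gate, 7 of the 15 Vip nuclei of DOCA-salt 2 were suprachiasmatic-gated, with 5 in the remaining GABA class and 3 in no class. In Sham 2 the remaining GABA class held 18 of 55, the suprachiasmatic gate 6, the Tac2 gate 3 and no class 25. The Sim1, oxytocin-vasopressin and microglia gates held 1 each. In Sham 1 the counts were 4 remaining GABA, 3 Tac2, 1 Sim1, 1 suprachiasmatic and 10 in no class of 19. Sums over the suprachiasmatic markers in all kept nuclei were 41.6, 75.4, 63.0 and 59.4 CPM, with all 5 markers found in each library. The lowest and highest of these sums were both in DOCA-salt libraries. The part of differing punches in the Vip values was not tested.

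The genes that led the Vip nuclei over other neurons differed in part between libraries. They were chosen after their values were seen and are a description only. In DOCA-salt 2 they were Avp, the precursor of vasopressin, the circadian regulator of G protein signaling Rgs16, and the nuclear receptors Rora and Rorb. Avp was at 6931 CPM in the 15 Vip nuclei and 512 CPM in the other neurons. In Sham 1 they were Nts (the precursor of neurotensin), the protease Pappa and the extracellular matrix protein Reln, with Nts at 867 against 184 CPM. In Sham 2 they were C1ql3, Reln and the transcription factor Pou3f2, with C1ql3 at 232 against 51.0 CPM and Reln at 170 against 41.7 CPM. The 4 Vip nuclei of DOCA-salt 1 were led by Igf1 at 236 against 5.72 CPM, which rests on very few UMIs.

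**Figure D3:**
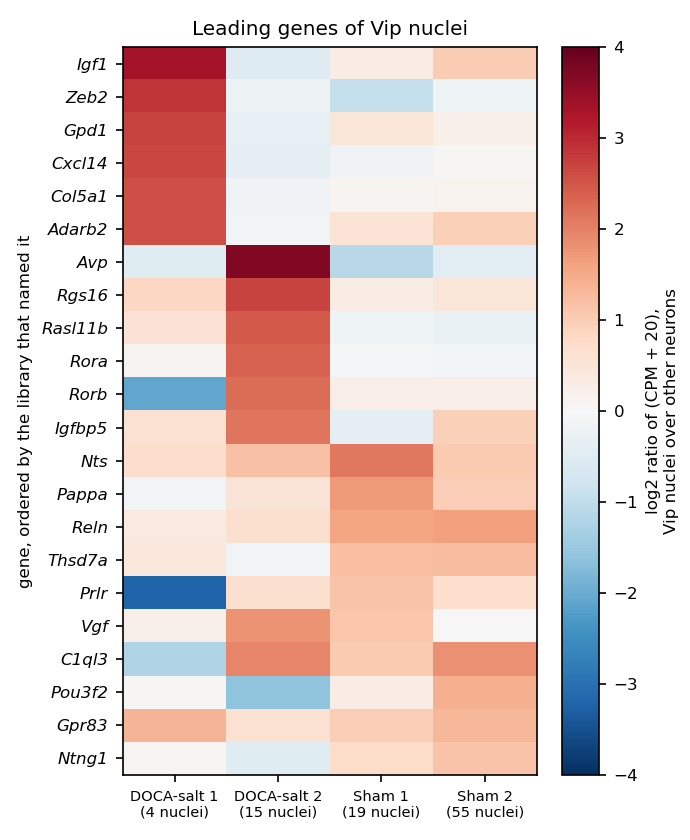
Colours give the log2 ratio of CPM plus 20 in Vip nuclei over other neurons of the same library, with leading genes in rows and the 4 libraries in columns. Rgs16, which leads in DOCA-salt 2 with Avp, and Nts, which leads in Sham 1, are paler in the other libraries. Outside DOCA-salt 2 Avp is lower in the Vip nuclei than in other neurons. It is at 0 against 7.97 CPM in DOCA-salt 1, 26.6 against 81.1 CPM in Sham 1 and 125 against 174 CPM in Sham 2. Other leading genes are shared. Reln leads in both Sham libraries, and C1ql3 of Sham 2 is also at 192 against 34.5 CPM in DOCA-salt 2.

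Each gated class was then compared with the mean of the other 13 tested classes, with the library as a block. Of the 70 pairs of a member and a class, 56 passed the filter of low counts. In 12 of these (5 of Vip and 7 of Vipr2) the SE, worked out from the test's own F value, was over 5 log2 units. Their estimates were not used, and none of them was called. Of the other 44 pairs the member was higher in 10 and lower in 4 at an adjusted p under 0.05 (edgeR). Over all genes and classes 9.46% of tests were called higher and 6.14% lower, so a call by itself is common here, and the size of the difference separates the pairs better. All 14 Vipr1 pairs were below the filter of low counts.

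Averaged over the 4 libraries, Vip was highest in suprachiasmatic-gated nuclei, at 0, 72.1, 20.7 and 149 CPM (60.6 ± 66.6, SD, n = 4). In Sham 1 the Tac2 (70.6 CPM), Sim1 (31.7 CPM), remaining GABA (31.4 CPM) and Pomc classes (22.4 CPM from 6 UMIs) were higher. In DOCA-salt 1 the remaining GABA class (1.56 CPM) was above the suprachiasmatic class. The spread was wide, and DOCA-salt 1 had 0 Vip UMIs in 13 nuclei, which allows up to 23.1% of them to have had one. After thinning, 0%, 2.91%, 2.02% and 7.07% of these nuclei, with median depths of 10177, 3481, 9735 and 9382 UMIs, had a Vip UMI, against the oligodendrocyte background of 0%, 0%, 0.405% and 1.36% given above. The level was 4.23 log2 units above the other classes (SE 0.46, edgeR adjusted p = 1.18e-08), and stayed past the threshold under all 9 alternatives that gave a value. The remaining GABA class was also higher (1.81 log2 units, SE 0.47, edgeR adjusted p = 0.00545), at 1.56, 4.48, 31.4 and 46.3 CPM. That call was lost with DESeq2 (adjusted p = 0.203) and without Sham 2 (adjusted p = 0.136).

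Vip in Tac2-gated nuclei, the neurons that make neurokinin B, was at 0, 0, 70.6 and 24.5 CPM, and in Sim1-gated nuclei at 0, 2.06, 31.7 and 30.4 CPM. Neither class passed against the others (edgeR adjusted p = 0.120 and 0.301). Ventromedial-gated nuclei had 0, 0.658, 0 and 5.98 CPM of Vip, and no Vip UMI was read in any of the 150 endothelial-gated nuclei. Oligodendrocyte-gated nuclei had 0, 0, 4.28 and 18.4 CPM and astrocyte-gated nuclei 0, 3.95, 13.6 and 10.1 CPM, so that glia of the Sham libraries also held Vip UMIs.

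Vipr2, the receptor through which VIP acts in the clock, was highest in the same class. Suprachiasmatic-gated nuclei had 0, 89.2, 56.8 and 54.5 CPM, which was 5.11 log2 units above the other classes (SE 0.31, edgeR adjusted p = 2.62e-23). The 0 in DOCA-salt 1 came from 13 nuclei with 130031 UMIs, where 3 UMIs would be 23.1 CPM. Without thinning 34.0%, 29.7% and 33.8% of the nuclei had a Vipr2 UMI in the other 3 libraries, and 8.45%, 5.14% and 5.37% had one after thinning. In oligodendrocyte-gated nuclei the thinned shares were 0%, 0% and 0.218% in these libraries, at the depths given above. Among the other tested classes Vipr2 reached at most 31.6 CPM, in OPC-gated (oligodendrocyte precursor) nuclei. It may therefore have passed the filter of low counts through the suprachiasmatic class. The Vipr2 calls between classes are thus a description only.

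Vipr2 in oxytocin-vasopressin-gated nuclei reached 45.4 CPM in DOCA-salt 2, above the 27.6 and 26.5 CPM of the Sham libraries. DOCA-salt 1 held 8 such nuclei, with no Vipr2 UMI. This class was not tested, and its leading genes included Rora, Rorb and Rgs16, which also led the suprachiasmatic-gated nuclei. Oligodendrocyte precursor (OPC)-gated nuclei came next, at 4.46, 31.6, 11.8 and 25.2 CPM from 17 UMIs in all. They were higher than the other classes by 3.46 log2 units (SE 0.62, edgeR adjusted p = 7.73e-06), a call kept under all 9 alternatives that gave a value. For Adcyap1r1 in OPC-gated nuclei 11 alternatives gave a value, so Vipr2 went untested under some of them. Oligodendrocyte-gated nuclei, their descendants, had 0, 0, 0 and 2.45 CPM. The small difference in Tac2-gated nuclei (1.66 log2 units, SE 0.56, edgeR adjusted p = 0.0452) was lost under 5 of 9 alternatives, with adjusted p from 0.0205 to 0.417.

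**Figure D4:**
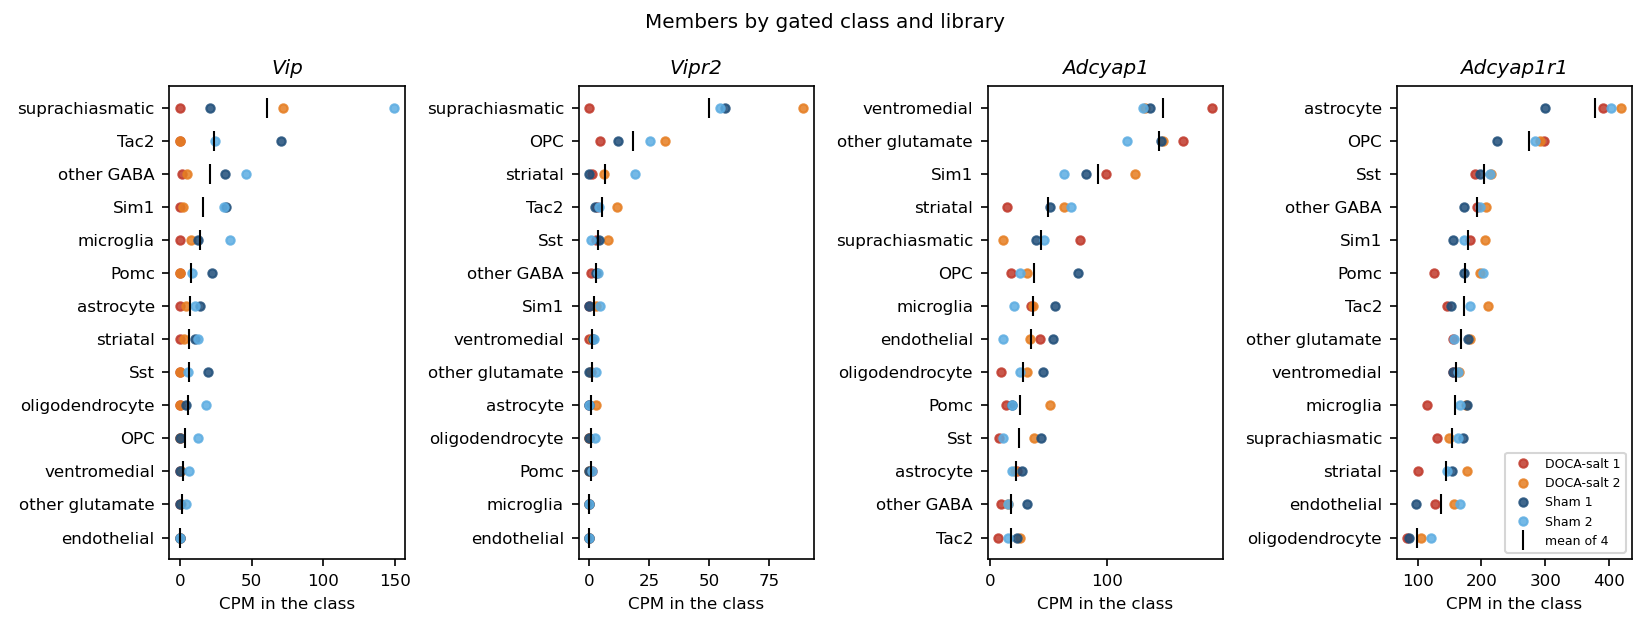
Points give the CPM of Vip, Vipr2, Adcyap1 and Adcyap1r1 in each library (colour) for the 14 tested classes, and ticks the mean of the 4 libraries. The means of Vip and Vipr2 peak in the suprachiasmatic class, though not the Vip points of every library. Those of Adcyap1 peak in the ventromedial and remaining glutamate classes, and that of Adcyap1r1 in astrocytes.

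Adcyap1 had a different map. Ventromedial-gated nuclei had 191, 133, 137 and 131 CPM (148 ± 28.5, SD, n = 4), 2.12 log2 units above the other classes (SE 0.21, edgeR adjusted p = 1.98e-10). The remaining glutamate class had 165, 149, 147 and 117 CPM (144 ± 20.1, SD, n = 4), a difference of 2.15 (SE 0.20, edgeR adjusted p = 1.04e-10). The 2 classes were next to each other in level and did not differ beyond their spread. The genes that led the remaining glutamate class included Fezf1, a marker of the ventromedial gate, and Lbhd2 and Cacna2d1, all 3 of which also led the ventromedial class. Sim1-gated nuclei, whose transmitter type and region were not checked by the gate, followed with 99.3, 124, 81.9 and 63.2 CPM. They were 1.34 log2 units above the other classes (SE 0.27, edgeR adjusted p = 0.001), which was lost without DOCA-salt 2 (adjusted p = 0.171).

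The other neuronal classes differed in level. The remaining GABA class had 9.38, 15.1, 31.4 and 14.7 CPM, 1.39 log2 units below the other classes (log2 difference -1.39, SE 0.24, edgeR adjusted p = 3.68e-05). Tac2-gated nuclei had 6.72, 25.1, 22.8 and 14.9 CPM (log2 difference -1.12, SE 0.37, edgeR adjusted p = 0.0437), a call lost under 5 of 11 alternatives. Among the other ARC peptide classes, Pomc-gated nuclei, which make the precursor of melanocortins, averaged 25.6 ± 17.5 CPM (SD, n = 4) and did not pass (edgeR adjusted p = 0.172). Agrp-gated nuclei, which make agouti-related peptide and number 1 in DOCA-salt 2, averaged 31.2 CPM over the other 3 libraries and were not tested. Suprachiasmatic-gated nuclei had 76.9, 10.7, 38.7 and 45.7 CPM, with no difference that passed (edgeR adjusted p = 0.574). Striatal-gated nuclei had 14.01, 62.9, 51.1 and 69.5 CPM of Adcyap1, the fourth highest mean of the 14 classes (log2 difference 0.04, SE 0.43, edgeR adjusted p = 0.989).

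The share of ventromedial-gated nuclei with an Adcyap1 UMI was 68.9%, 55.6%, 74.4% and 66.9%, and 15.6%, 9.72%, 10.1% and 9.24% after thinning (median depths 6458, 6120, 15494 and 11710 UMIs). Oligodendrocyte-gated nuclei had thinned shares of 0.409%, 2.37%, 4.03% and 1.29%. The ventromedial share was above that background in each library, while the thinned shares in the Pomc, Tac2 and remaining GABA classes, 0.217% to 2.61%, overlapped it and were not read as expression.

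Adcyap1r1 was the member read in the most nuclei. Astrocyte-gated nuclei had the highest level, at 390, 420, 300 and 404 CPM (378 ± 53.8, SD, n = 4), 1.39 log2 units above the other classes (SE 0.07, edgeR adjusted p = 1.76e-30). OPC-gated nuclei followed with 299, 292, 225 and 284 CPM (275 ± 33.9, SD, n = 4; log2 difference 0.68, SE 0.10, edgeR adjusted p = 1.53e-07). Of the 14 tested classes oligodendrocyte-gated nuclei were lowest, with 83.6, 104, 85.5 and 121 CPM (98.7 ± 17.7, SD, n = 4; log2 difference -0.62, SE 0.10, edgeR adjusted p = 6.07e-07). Tanycyte-gated nuclei, with 10 or more nuclei in only 2 libraries and not tested, averaged 57.3 CPM there. Within the oligodendrocyte lineage the precursors were thus above, and the mature cells below, the mean of the other classes.

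Neurons lay between these glia. The means of the 9 neuronal classes tested ran from 144 CPM (striatal-gated) to 204 CPM (Sst-gated, where the leading genes held Sst of the class itself and Otp and Npy of other classes), with ventromedial-gated nuclei at 160 ± 5.07 and suprachiasmatic-gated nuclei at 153 ± 17.6 CPM (SD, n = 4). Of these only the striatal class was called, as lower (log2 difference -0.45, SE 0.12, edgeR adjusted p = 0.00441), and that was lost without DOCA-salt 1 (adjusted p = 0.409). Among neuronal classes not tested, Ghrh-gated and Agrp-gated nuclei averaged 229 and 223 CPM over 3 libraries each. Dopamine-gated nuclei averaged 235 CPM over 2 libraries. In 1 library each, orexin-gated nuclei had 232 CPM and MCH-gated nuclei 124 CPM. After thinning, 26.3%, 28.6%, 21.0% and 28.4% of astrocyte-gated nuclei had an Adcyap1r1 UMI, against 4.89%, 5.89%, 6.22% and 7.44% of oligodendrocyte-gated nuclei. Median depths of the astrocyte-gated nuclei were 1070, 958, 4706 and 1795 UMIs.

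**Figure D5:**
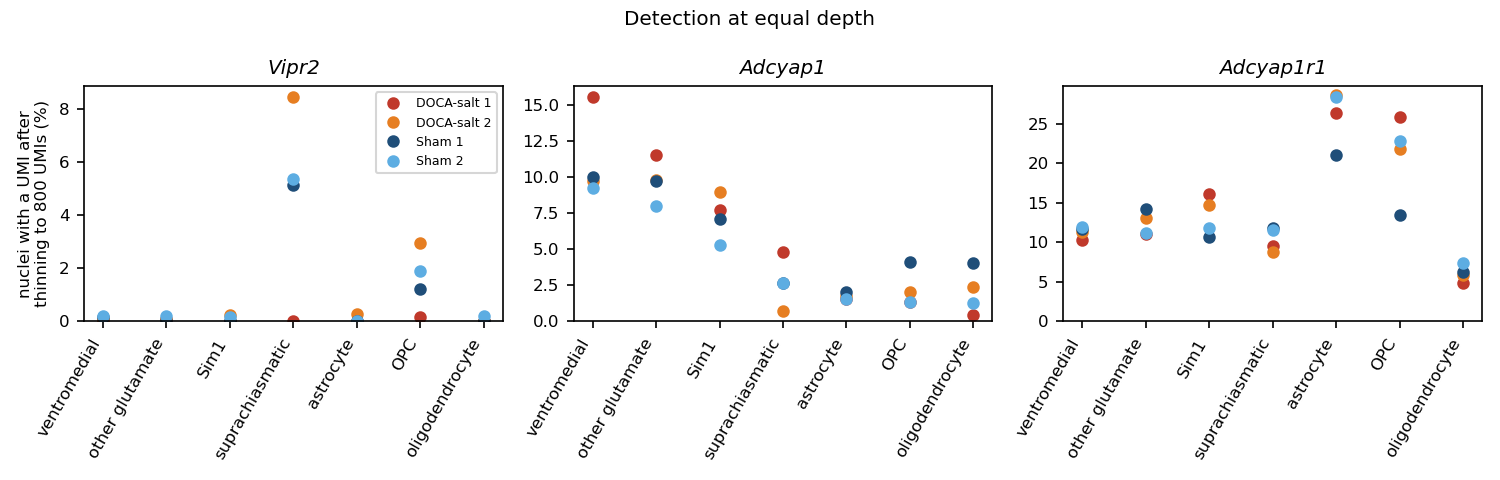
Points give the percent of nuclei with a UMI of Vipr2, Adcyap1 or Adcyap1r1 after thinning each nucleus to 800 UMIs, for 7 classes, 1 point per library. Adcyap1 runs from 9.24% to 15.6% in ventromedial-gated nuclei, which overlaps the remaining glutamate class (8.02% to 11.5%). Adcyap1r1 runs from 21.0% to 28.6% in astrocyte-gated nuclei, which overlaps OPC-gated nuclei (13.5% to 25.9%).

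With the 14 classes ordered by level, neighbours were tested against each other. The order was set by the same values, so the neighbours are a description of how closely the classes lie. Of 52 pairs of neighbours 4 passed (edgeR), against 12.1% of all genes in the same pairs of classes, and 2 pairs near 0 gave no usable estimate. Vip was higher in suprachiasmatic-gated than in Tac2-gated nuclei (adjusted p = 0.00877), and Vipr2 was higher in suprachiasmatic-gated than in OPC-gated nuclei (adjusted p = 0.00892). Adcyap1r1 was higher in astrocyte-gated than in OPC-gated nuclei (adjusted p = 7.33e-06) and higher there than in nuclei past the Sst gate (adjusted p = 0.00291), the class led more by markers of other classes than by its own. For Adcyap1 0 of 13 neighbour pairs passed. Vipr1 had 0 UMIs in 7 of the 14 classes. Its highest level was 17.8 CPM in striatal-gated nuclei of DOCA-salt 1 (14 UMIs in 193 nuclei), and no UMI was found in the 98 striatal-gated nuclei of the other 3 libraries.

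Treatment was next compared within each class. In 31 pairs of a member and a class the counts sufficed for a test, and 0 passed (edgeR, lowest adjusted p = 0.129), against 0.1% of all genes over these classes. At an unadjusted p under 0.05 there were 4 of 31, against 9214 of 116793 tests over all genes of these classes. The DOCA-salt libraries were both above the Sham libraries in 4 of the 31 pairs, and both below in 4, against 20.4% and 18% of all genes. The values of the Sst-gated nuclei are not compared between treatments by name, given the leading genes described above.

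Vip supplied the 3 lowest p values. In the remaining GABA class its log2 difference was -3.59 (SE 0.45, unadjusted 5.61e-05, edgeR adjusted p = 0.161), and in Sim1-gated nuclei -3.90 (SE 0.73, unadjusted 8.83e-05, edgeR adjusted p = 0.129). In Tac2-gated nuclei 0 of 333 nuclei of the DOCA-salt libraries had a Vip UMI, and against the floor of 3 UMIs over the group Vip was at least 26.0-fold lower than in Sham (unadjusted 0.000154, edgeR adjusted p = 0.479). That bound was 16.3-fold without Sham 1 and 46.8-fold without Sham 2. The Sham side rested largely on few nuclei, as 3 Tac2-gated nuclei in each Sham library had 5 or more Vip UMIs. A bound was made only where a treatment was at 0. In the Tac2 and Sim1 classes Vip passed the filter of low counts through the Sham libraries alone. The bound and the p values of these 2 classes are therefore a description only. In the remaining GABA, Sim1 and Tac2 classes both Sham libraries were above both DOCA-salt libraries. The same order held in the Pomc, astrocyte, microglia, oligodendrocyte and striatal classes, on 4 to 17 Vip UMIs each, too few for a test. In the OPC, endothelial, remaining glutamate, suprachiasmatic and ventromedial classes the treatments overlapped. DESeq2 called the remaining GABA class (adjusted p = 2.64e-11) and the Tac2 gate (adjusted p = 0.0119), and edgeR with the replicate number as a block called the remaining GABA class (adjusted p = 0.0122). With no filter of low counts edgeR called Vip in all 3 classes (adjusted p = 5.04e-26 in remaining GABA, 2.42e-12 in Tac2 and 0.00185 in Sim1), and it called the Sim1 class with gates at 0.5 times the marker UMIs (adjusted p = 0.00932) and with all barcodes (adjusted p = 7.22e-06). The calls in the Tac2 and Sim1 classes are again a description only. The share of all genes called under these settings is not given here. Leaving out 1 library also changed which pairs passed. Such a fit assumes that the lone library of a treatment varies like the others, so only log2 differences are given. Without DOCA-salt 1 the Vip difference was -3.16 in the remaining GABA class and -3.85 in the Sim1 class. That of Adcyap1 was -1.97 in the suprachiasmatic class. Without DOCA-salt 2, in the remaining GABA class, the difference was -4.73 for Vip and -1.25 for Adcyap1. In the suprachiasmatic class the DOCA-salt side then had 0 UMIs of Vip and Vipr2, so no size is given for them. Both genes passed the filter there through the Sham libraries alone. For Vip in the Tac2 class, at 0 in both DOCA-salt libraries, only the bound above is given.

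The same direction was seen in cells that should not make Vip. Oligodendrocyte-gated nuclei of the DOCA-salt libraries had no Vip UMI in 774 nuclei and were at least 4.26-fold lower than those of Sham, where 17 UMIs were read. Of these 15 came from Sham 2, and for Sham 1 alone, with 2 UMIs, the ratio to the same floor was 1.37. Whether free RNA from Vip nuclei gave part of the Vip reads of other classes was not tested. In suprachiasmatic-gated nuclei, where mean Vip was highest, the groups overlapped (0 and 72.1 CPM with DOCA-salt, 20.7 and 149 CPM with Sham). The log2 difference was -0.64 (SE 1.17, edgeR adjusted p = 0.914).

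Vipr2 in the suprachiasmatic class did not separate by treatment (log2 difference 0.33, SE 0.63, edgeR adjusted p = 0.915). Adcyap1 in ventromedial-gated nuclei had a log2 difference of 0.22 (SE 0.23, edgeR adjusted p = 0.769) and in Sim1-gated nuclei of 0.66 (SE 0.28, edgeR adjusted p = 0.400). Adcyap1r1 in astrocyte-gated nuclei had a log2 difference of 0.21 (SE 0.26, edgeR adjusted p = 0.849). For Adcyap1r1 the 14 class differences all missed the threshold. Whether the treatment difference of a class departed from the mean of the other classes was tested for Adcyap1 and Adcyap1r1 in 28 pairs, and 0 passed (edgeR, lowest adjusted p = 0.930, 0 at an unadjusted p under 0.05), against 0.00312% of all genes. For Vip and Vipr2 the fit gave no usable SE in any class, so whether their difference varied between classes was not tested. Without DOCA-salt 1, with a lone DOCA-salt library left, Adcyap1 in suprachiasmatic-gated nuclei had a log2 difference of -2.18 from the mean of the other classes.

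The pathway around the receptors was followed in 36 partner genes, grouped as related ligands and receptors, receptor activity modifying proteins, peptide processing and breakdown enzymes, and the cyclic AMP pathway. Between treatments 0 of the 32 partners tested in whole libraries passed (edgeR, lowest adjusted p = 0.602, 0 at an unadjusted p under 0.05, median log2 difference 0.04), and DESeq2 called 0 of them. Within classes 0 of 309 pairs of a partner and a class passed (edgeR, lowest adjusted p = 0.167), and DESeq2 also called 0. At an unadjusted p under 0.05 there were 18 of 309, against 9214 of 116793 tests over all genes of these classes.

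Between classes, of the 26 partners tested, 5 were higher and 0 lower in suprachiasmatic-gated nuclei, where over all genes 5.13% were called higher and 1.96% lower. They were the prohormone convertases Pcsk1 (0.87 log2 units, edgeR adjusted p = 0.0315) and Pcsk2 (0.50, adjusted p = 0.000303), the amidating enzyme Pam (0.42, adjusted p = 0.00285), the adenylyl cyclase Adcy3 (0.63, adjusted p = 0.000478) and the cyclic AMP-responsive factor Crem (0.84, adjusted p = 0.0121). Pcsk1, Pcsk2 and Pam cut and amidate peptide precursors such as those of VIP and PACAP.

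In ventromedial-gated nuclei 8 partners were higher and 2 lower, with 14.2% and 9.67% over all genes. The higher partners included Pam (0.76, edgeR adjusted p = 2.16e-11), Pcsk2 (0.63, adjusted p = 4.39e-08) and Crtc1, a coactivator of CREB (0.94, adjusted p = 1.18e-12), and the lower ones were Ramp1 (-0.75, adjusted p = 0.00358) and Creb1 (-0.39, adjusted p = 0.0121).

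In astrocyte-gated nuclei 4 partners were higher and 8 lower, with 20.4% and 15.01% over all genes. Ramp1 and Ramp2, which modify receptors of this class, were higher by 2.13 (edgeR adjusted p = 3.34e-17) and 1.12 log2 units (adjusted p = 0.000216), the calcium-stimulated adenylyl cyclase Adcy8 by 2.35 (adjusted p = 5.10e-17) and the carboxypeptidase Cpe by 0.77 (adjusted p = 1.02e-15). The lower partners were Pcsk2, Pam, Adcy3, Adcy6 and 4 subunits of protein kinase A (Prkaca, Prkacb, Prkar1a and Prkar1b). OPC-gated nuclei shared the higher Ramp1 (1.83, adjusted p = 1.10e-09) and Ramp2 (1.67, adjusted p = 0.000139). Ramp2 was highest in endothelial-gated nuclei (log2 difference 4.77, adjusted p = 1.46e-26), where Adcyap1r1 was not higher than in the other classes (log2 difference -0.40, adjusted p = 0.273).

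The genes whose means over the 14 classes were most like each member are given as a description. Adcyap1 was most like Cbln1, a synaptic organiser of glutamatergic neurons (Pearson r = 0.93), followed by Bdnf (0.89), a neurotrophin, and Chst8 (0.88). Adcyap1r1 was most like Eno1 (0.95) and Ntrk2 (0.92), a neurotrophin receptor, both highest in astrocyte-gated nuclei. Vipr2 was most like 2700049A03Rik (0.87) and Suds3 (0.87), and Vip like 2310057M21Rik (0.86) and Cisd3 (0.83). Vipr1, with few UMIs, was most like Sf3b1 (0.83). The classes share libraries and depth, and several hold few nuclei, so no test was made.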

How the data were processed

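UMI counts per gene and nucleus were used as deposited. The authors made them from 10x Genomics 3′ libraries with Cell Ranger 3.0.1 on mm10, and whether intronic reads were counted is not given in the sources used here. Positions and coding sequences came from GENCODE transcripts of that build.

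Barcodes were kept as nuclei between 200 and 7000 genes detected, below 25000 UMIs and below 15% of UMIs from mitochondrial genes (39176 in all). Peptide gates needed 5 UMIs and 5-fold enrichment over the library, list gates 3 UMIs, 2 different markers and 4-fold enrichment, the Sim1 gate 2 UMIs, and neurons 3 UMIs of Snhg11 at 0.5 times the library's share or more. Remaining neurons were split by GABA genes or Slc17a6 (2 UMIs, none of the other). No doublet caller was run, and 4296 nuclei meeting several gates got no class.

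Counts summed per library (the replicate) and class were tested with edgeR 4.0.16 (R 4.3.3, TMM, filterByExpr, quasi-likelihood, Benjamini-Hochberg adjustment, threshold 0.05). An exact permutation test of 2 against 2 cannot go below 0.333, so none was run. Alternatives were DESeq2 1.42.0, RLE scaling, no filter, a replicate block, gates at 0.5 and 2 times the marker UMIs, all barcodes, no deepest 5% of nuclei and leaving out each library. Same-numbered libraries did not deviate together (correlation -0.22 over 16564 genes), so numbers were not taken as pairs. Detection was the expected share after drawing 800 UMIs per nucleus. Intervals are exact binomial (scipy 1.17.1), with a floor of 3 counts at 0. For edgeR the SE was worked out from the absolute log2 difference and the F value of the test. It therefore becomes very large where F is near 0. The fits were tested on simulated data.

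Named genes are the members, the 36 partners and, per member, the best of the 5 genes whose class means of log2(CPM + 1) correlated most with it, among genes at 20 CPM or more in a class. Members and lists were chosen with earlier results of these data known. Gates were set after marker counts and whole-library member totals, but not member values by class, had been seen. Other settings (list enrichment of 3 with a 4-gene neuron list, a neuron share of 0.7) were tried first and judged by class sizes, marker specificity and conflicts.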

Additional observations from a re-analysis of the deposited data

Results flagged for a closer look

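Vipr1 was read in the barcodes that the limits on nuclei left out, at a mean of 1.27 CPM in the DOCA-salt libraries (1.95 and 0.597 CPM, 15 and 6 UMIs), above the Sham libraries (0.594 and 0.455 CPM, 19 and 9 UMIs). The lower DOCA-salt value and the higher Sham value were nearly equal, and DOCA-salt 1 alone set the mean apart, as it did among the kept nuclei. Vip in the same barcodes was at 3.38 and 3.28 CPM with DOCA-salt and at 20.4 and 18.6 CPM with Sham, the order seen in kept nuclei. No test was made on these barcodes.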

How the results depend on the processing

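Whole-library Vip stayed lower with DOCA-salt under all 10 alternatives, and it passed the threshold under 5 of them. The log2 difference was -3.16 with DESeq2 (adjusted p = 8.96e-14) and -3.14 with no filter (adjusted p = 0.0094), and ran from -3.86 to -2.71 when 1 library was left out. Genes called in whole libraries went from 0 to 102 with DESeq2, 67 with no filter and 6 to 671 without 1 library, where the lone library of a treatment is assumed to vary like the others. A block by replicate number left 0 genes called, and a block with the numbers crossed, added after the correlation of -0.22 was seen, gave 45 genes. The other members had no stable direction in whole libraries. Without 1 library, Vipr1 ran from -1.12 to 2.11, Vipr2 from -1.83 to 0.91, Adcyap1 from -0.32 to 0.21 and Adcyap1r1 from -0.18 to 0.12, and Vipr2 was at -0.36 with the replicate block. Pairs of a member and a class called between treatments went from 0 to 2 with DESeq2, 3 with no filter and 1 with the replicate block. There was 1 with gates at 0.5 times the marker UMIs and 1 with all barcodes. The share of all genes called under these settings is not given here, and fits without 1 library are not counted. Pairs called between classes went from 14 to 7 with gates at 2 times the marker UMIs and to 12 to 13 without 1 library. With those gates the suprachiasmatic, Sim1, striatal and ventromedial classes fell under 10 nuclei in a library, so their pairs were not tested. For class by treatment 0 pairs were called from the 4 libraries, with no usable estimate for Vip and Vipr2. Thinning moved the mean share of nuclei with a UMI to 11.2% for Adcyap1 in ventromedial-gated, 26.1% for Adcyap1r1 in astrocyte-gated, and 4.74% and 1.56% for Vipr2 in suprachiasmatic-gated and OPC-gated nuclei. Ranking by Spearman correlation shared 8 of 25 genes with the Pearson ranking. The cause of these moves was not tested. Classes under 10 nuclei in a library were not tested, and 4 libraries limit every comparison between treatments.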
